A study of Mus musculus with 15 samples.

Results

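The subject of this report is a set of 3 RNA-seq libraries of mouse podocytes, coded D05, E05 and F05, which stood apart from the other 6 libraries of the same experiment whether or not the cells had been stretched. They were 3 of the 9 libraries of experiment 1 and of 15 in the study; the other 6, of experiment 2, were 3 unstretched samples of its own and 3 high-stretch samples with a labelled deflection of 7 to 8 mm. The cells were SVI, a conditionally immortalised mouse podocyte line, so that all libraries share 1 cell source. After differentiation they were seeded on elastic silicone supports and kept still or deflected by pressure, to study splicing and expression under a load that models raised pressure in the glomerulus. Every library of both experiments came from this line and carried no other agent or allele in the labels. Unstretched replicates 1, 2 and 3 had the codes A05, D05 and G05, and low-stretch replicates 1 to 6, with a labelled membrane deflection of 5 to 6 mm, had the codes B05, C05, E05, F05, H05 and A06. Duration of stretch and culture dates are not in the labels. In code order the libraries fall into 3 blocks of 1 unstretched and 2 low-stretch samples, called runs here: the first run A05 to C05, the second run D05 to F05 and the third run G05 to A06. The labels do not state a run, and the blocks were inferred from neighbouring codes, so nothing here shows whether a block was a culture, an extraction or a position on a plate.

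The second run was chosen by its expression values, namely the difference of its CPM from the other 6 libraries within each stretch group. This difference from the other libraries is therefore described below without p-values. A gene was called set apart when its CPM (a read count scaled to library size with TMM factors) in unstretched replicate 2 lay outside unstretched replicates 1 and 3, and low-stretch replicates 3 and 4 both lay outside the other 4 low-stretch libraries, all on the same side. Log2 differences of the second run were fitted with stretch as a covariate and are given with their standard error (SE). At the size of 1 on the log2 scale, the set-apart genes just inside were Mcm3 at 1.00, Adh7 at 1.01 and Malat1 at -1.01, and just outside were Tnnt3 at -0.99, Cst6 at 0.9954 and Tnfrsf21 at 0.9969.

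As background, a cell that prepares to divide first makes the enzymes of DNA replication: the MCM helicase that unwinds DNA, the factors that load it, and the enzymes that supply deoxynucleotides. E2F transcription factors control many of these genes. Growth also draws on ribosome production, which MYC stimulates, and on mitochondrial respiration. Podocytes in the glomerulus have left the cell cycle, and conditionally immortalised lines are grown as dividing cells before they are differentiated.

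Of 21672 genes tested in experiment 1, 7120 were set apart in the second run (32.9%), of which 3728 were higher (17.2%) and 3392 lower (15.7%). A log2 difference of at least 1 in size was found for 502 of them (2.32%), 139 that were higher (0.641%) and 363 that were lower (1.67%). Most of these were scarce: 111 of the 139 and 327 of the 363 had a mean under 1 CPM. Since the rule chose these libraries for their difference, nothing is read from these shares beyond their use as a background for the lists below. Across all tested genes, the deviations of libraries from their stretch group correlated between 0.352 and 0.579 within the second run, between 0.244 and 0.573 within the other runs, and between -0.729 and -0.0507 between runs. These correlations are across genes, which are not independent replicates, and deviations from a shared group mean are pushed apart between runs.

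Total counts of the second run were 266.4 to 291.9 M against 262.0 to 396.7 M in the other 6 libraries. For most genes named below counting error is small at this depth and the number of libraries limits the precision, but Ccl20, Lyz2, Mt2, Areg, Lama2 and, in some libraries, Prss35 rested on few reads. Podocyte identity was partial in every library. Synpo (mean 387 CPM), Podxl (149 CPM) and Actn4 (842 CPM) were abundant, Wt1 averaged 3.51 CPM, and the slit diaphragm gene Nphs1 was near 0 (0.428 CPM). Transcripts known from parietal epithelium and tubule were also present, among them Pax2, Pax8 and Lrp2. Of 24 tested podocyte genes 3 were set apart higher and 4 lower in the second run, against 17.2% and 15.7% of all genes, with a median log2 difference of -0.02. The summed CPM of the 15 podocyte markers was 1513 to 1704 in the second run and 1326 to 1625 elsewhere, and that of 5 parietal epithelium markers was 342.2 to 383.4 against 412.7 to 634.4. Nearly all of the parietal sum was Pax2 and Pax8, and Krt8 and Krt18 were near 0. Cldn1 was at 5.175 and 6.12 CPM in low-stretch replicates 3 and 4 against 2.72 to 4.24 CPM. In unstretched replicate 2 it was at 6.37 CPM against 7.49 and 6.39 CPM. A longer parietal list, with 6 genes tested, had a median log2 difference of 0.02. The sum of 9 fibroblast and mesangial markers was 99.5 CPM in unstretched replicate 2 against 108 and 115 CPM. In low-stretch replicates 3 and 4 it was 63.9 and 68.7 CPM against 78.1 to 86.8 CPM. Most of this sum was Pdgfrb. A longer list of this kind, with 9 genes tested, had a median log2 difference of 0.15. Sums of endothelial markers stayed between 0.0829 and 0.298 CPM in all 9 libraries, and sums of leukocyte markers between 7.38 and 28.5 CPM, most of it Csf1r. In bulk RNA, a change in the number of cells of a kind and a change in RNA per cell cannot be told apart.

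The gene group that separated the second run most evenly was DNA replication. All 30 genes of the list were tested and all 30 were set apart higher, against 17.2% of all genes, with log2 differences from 0.48 (E2f1) to 1.15 (Tk1) and a median of 0.80. The promoters of 4 of the leading members are printed here because E2F sites are known from such promoters. The sequences are RefSeq's for GRCm38.p6 and run 5′ to 3′ on the gene's strand up to the base before the start site. The capitals mark matches to the E2F-type motifs TTTCCCGC, TTTGGCGC, TTTCGCGC or TTTGCCGC on either strand.
Tk1: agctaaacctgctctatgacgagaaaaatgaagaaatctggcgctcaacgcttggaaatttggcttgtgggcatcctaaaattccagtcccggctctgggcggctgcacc
Cdc6: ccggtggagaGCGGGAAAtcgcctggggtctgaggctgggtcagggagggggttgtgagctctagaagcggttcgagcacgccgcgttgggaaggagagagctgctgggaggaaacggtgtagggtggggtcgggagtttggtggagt
Mcm3: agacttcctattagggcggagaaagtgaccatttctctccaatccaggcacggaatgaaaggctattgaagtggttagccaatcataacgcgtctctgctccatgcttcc
Mcm5: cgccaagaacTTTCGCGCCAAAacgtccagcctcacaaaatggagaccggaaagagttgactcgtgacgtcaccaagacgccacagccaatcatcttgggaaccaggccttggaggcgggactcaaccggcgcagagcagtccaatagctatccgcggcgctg
These stretches lie at chr11:117826015-117826124 (Tk1, minus strand), chr11:98908003-98908150 (Cdc6, plus strand), chr1:20820313-20820422 (Mcm3, minus strand) and chr8:75109346-75109508 (Mcm5, plus strand). Cdc6 held 1 match, starting at -138 from the start site, and Mcm5 held 2 overlapping matches, starting at -153 and -149. No match was found in the 250 upstream bases of Tk1 and Mcm3, which says only that these letters were not in this window. Of the 30 replication genes, 23 had a promoter in the table and 7 of them held a match (30.4%), against 432 of 12263 tested genes with a promoter (3.52%) and 611 of all 32851 windows of this length (1.86%). For mitosis genes it was 1 of 28 (3.57%), for ribosomal protein genes 1 of 56 (1.79%) and for ribosome biogenesis genes 4 of 22 (18.2%). A match describes the letters only.

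Tk1, thymidine kinase of the nucleotide salvage pathway, was at 84.2 CPM in unstretched replicate 2 and at 40.7 and 41.7 CPM in unstretched replicates 1 and 3. In the low-stretch libraries it was at 98.5 and 91.8 CPM in replicates 3 and 4, and at 38.1, 42.3, 37.0 and 47.9 CPM in replicates 1, 2, 5 and 6. The 3 libraries of the second run were the highest of the 9 by a wide gap, and the log2 difference was 1.15 ± 0.08 (SE). Cdc6, which loads the MCM helicase at replication origins, was at 32.1 CPM unstretched and 34.5 and 38.7 CPM stretched in the second run, against 16.6 and 16.7 CPM unstretched and 13.3 to 19.2 CPM stretched elsewhere (1.11 ± 0.12). Mcm3, a helicase subunit, was at 149.7 CPM unstretched and 160.5 and 166.3 CPM stretched, against 77.0 and 77.1 CPM unstretched and 68.1 to 93.1 CPM stretched (1.00 ± 0.09). The ranges did not overlap for any of the 3 genes, also when the stretch groups were pooled.

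The other replication genes followed the same pattern at smaller size. The remaining helicase subunits Mcm2, Mcm4, Mcm5, Mcm6 and Mcm7 were higher by 0.77, 0.73, 0.93, 0.72 and 0.81 on the log2 scale. Factors that prepare or fire origins were higher by 0.92 (Cdt1), 0.91 (Gins2), 0.84 (Cdc45) and 0.88 (Mcm10). Enzymes of nucleotide supply were higher by 0.86 (Tyms, thymidylate synthase) and 0.79 (Rrm2, a ribonucleotide reductase subunit). Pcna, the sliding clamp of the polymerases, was at 187.9 CPM in unstretched replicate 2 against 106.9 and 118.6 CPM, and at 211.3 and 224.0 CPM in low-stretch replicates 3 and 4 against 106.4 to 165.7 CPM. The cyclins that start replication, Ccne1 and Ccne2, were higher by 0.90 and 0.58. Further enzymes of nucleotide metabolism, outside this list, were among the 12 highest set-apart genes with a mean of at least 1 CPM: Dctd, the deoxycytidylate deaminase that feeds thymidylate synthesis (1.22 ± 0.20), and Dnph1, a nucleotide hydrolase that clears a modified deoxynucleotide (1.41 ± 0.16). Dnph1 was at 2.02 to 2.37 CPM in the second run and at 0.594 to 0.992 CPM in the other 6 libraries.

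**Figure D1:**
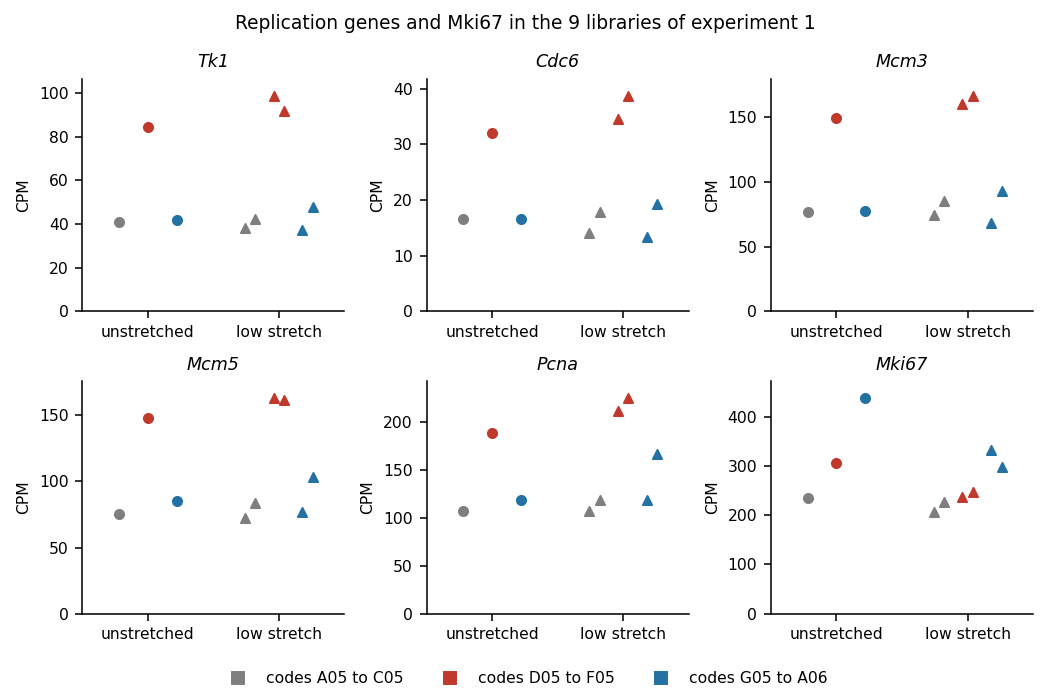
CPM (vertical axis, from 0) of 5 replication genes and Mki67 in the 9 libraries of experiment 1, with unstretched libraries as circles, low-stretch libraries as triangles and 1 colour per run. Each point is 1 library. Tk1, Cdc6, Mcm3, Mcm5 and Pcna were highest in D05 to F05 (red), while for Mki67 the unstretched library G05 (blue) was highest at 438.1 CPM.

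Measures that the choice of the second run did not use gave small differences for these genes. Between the third and the first run, 7 of 30 replication genes were higher and 0 lower at an adjusted p under 0.05 (edgeR quasi-likelihood test, Benjamini-Hochberg over all genes), against 5.66% and 5.8% of all genes. The median log2 difference was 0.16, and Tk1 (0.06 ± 0.09), Cdc6 (0.03 ± 0.13) and Mcm3 (0.01 ± 0.10) did not pass. Stretch, tested with run as a term, raised 2 of the 30 and lowered 0, against 13.7% and 14.5% of all genes (40.1% had a raw p below 0.05 for stretch), with a median of 0.08. Over the whole list, the median deviation of each library of the second run from the same stretch group of the other runs was 0.761, 0.781 and 0.837 on the log2 scale. With the first and the third run each measured against the other, so that no library was part of its own reference, the deviation lay between -0.206 and 0.315.

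Mitosis genes were higher in the second run as well, but less evenly. Of 35 genes 26 were set apart higher and 0 lower, against 17.2% and 15.7% of all genes, with a median of 0.45. Birc5, the survivin subunit of the chromosomal passenger complex, was higher by 0.86 ± 0.12, and its partner kinase Aurkb by 0.86 ± 0.13. Cdk1, the kinase that drives entry into mitosis, was at 244.8 CPM in unstretched replicate 2 against 135.2 and 165.8 CPM, and at 248.6 and 235.9 CPM in low-stretch replicates 3 and 4 against 130.2 to 165.6 CPM. The proliferation marker Mki67 was not set apart: it was at 307.5 CPM in unstretched replicate 2, at 234.8 and 438.1 CPM in unstretched replicates 1 and 3, and at 236.5 and 248.6 CPM in low-stretch replicates 3 and 4 against 206.5 to 333.5 CPM. Its log2 difference was -0.13 ± 0.20, and those of the centromere motor Cenpe and of Cenpf were -0.29 ± 0.16 and -0.18 ± 0.16.

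The mitosis list differed between the remaining runs. In the third run 18 of 35 genes were higher than in the first run and 0 were lower (edgeR, adjusted p under 0.05). Over all genes 5.66% were higher and 5.8% lower in the third run, and the list's median was 0.34. Mki67 was higher there by 0.66 ± 0.09 (adjusted p = 0.00136, edgeR). For the list as a whole the first run was thus lowest, the third run intermediate and the second run highest, with medians of 0.61 for its difference from the first run and 0.30 for that from the third. Both differences share the second run. Replication-dependent histones have messages that mostly lack a poly(A) tail and are poorly captured by poly(A) libraries. Of 15 tested 1 was set apart higher and 1 lower, against 17.2% and 15.7% of all genes, with a median of -0.05.

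Ribosome-related genes formed the second set that was higher in D05 to F05. Of 76 tested cytosolic ribosomal protein genes 64 were set apart higher and 0 lower, against 17.2% and 15.7% of all genes. The list's median log2 difference was 0.30. Rps2, a small-subunit protein, was at 1772 CPM in unstretched replicate 2 against 1216 and 1075 CPM, and at 2542 and 2088 CPM in low-stretch replicates 3 and 4 against 1136 to 1953 CPM. Many ribosomal protein genes have near-identical processed pseudogenes among which reads can be split, so single values are uncertain, and processed pseudogenes as a class were shifted the same way (median 0.16). Together these genes took 3.29%, 4.27% and 3.66% of counts in the second run, and 2.73% to 3.42% in the other libraries. The share overlapped across stretch groups but not within them.

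Of 28 genes of ribosome biogenesis and MYC targets 24 were set apart higher and 0 lower, against 17.2% and 15.7% of all genes. The list's median was 0.33. Myc itself was at 29.0 CPM in unstretched replicate 2 against 16.7 and 10.4 CPM, and at 49.5 and 53.5 CPM in low-stretch replicates 3 and 4 against 26.8 to 39.0 CPM (0.83 ± 0.16). Srm, spermidine synthase, was higher by 0.72 ± 0.13 and Mrto4, a factor of large-subunit assembly, by 0.61 ± 0.08. The nucleolar core proteins Nop56 and Fbl were higher by 0.48 ± 0.06 and 0.40 ± 0.11.

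In both ribosome lists stretch also raised most genes, in contrast to its count for the replication list. With run as a term, stretch raised 53 of 76 ribosomal protein genes and lowered 0 (edgeR, adjusted p under 0.05). In the same test it raised 22 of 28 biogenesis genes and lowered 1, where it raised 13.7% and lowered 14.5% of all genes. Myc rose by 1.11 ± 0.10 under low stretch (adjusted p = 6.76e-05, edgeR). The third run differed from the first in 1 of 76 ribosomal protein genes (lower) and in 9 of 28 biogenesis genes (1 higher and 8 lower). Over all genes 5.66% were higher and 5.8% lower in the third run.

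Nuclear-encoded subunits of oxidative phosphorylation were set apart higher in 31 of 45 cases and lower in 0, against 17.2% and 15.7% of all genes. The list's median was 0.24. Atp5b, the catalytic subunit of the ATP synthase, was at 1824 CPM in unstretched replicate 2 against 1483 and 1347 CPM, and at 2096 and 1849 CPM in low-stretch replicates 3 and 4 against 1235 to 1615 CPM. Uqcrq, a small subunit of complex III, had the largest difference of the list (0.55 ± 0.12). Genes that mitochondrial DNA encodes went the other way, with a list median of -0.21. Of 15 tested 0 were set apart higher and 5 lower, against 17.2% and 15.7% of all genes. These 5 were all NADH dehydrogenase subunits, led by mt-Nd5 (-0.59 ± 0.18). Mitochondrially encoded genes together took 3.63% to 3.95% of counts in the second run, within the 3.55% to 5.21% of the other libraries. Nuclear subunits between the third and the first run differed in 1 of 45 genes, against 11.5% of all genes. Stretch raised 2 of the 45 and lowered 0, against 13.7% and 14.5% of all genes.

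**Figure D2:**
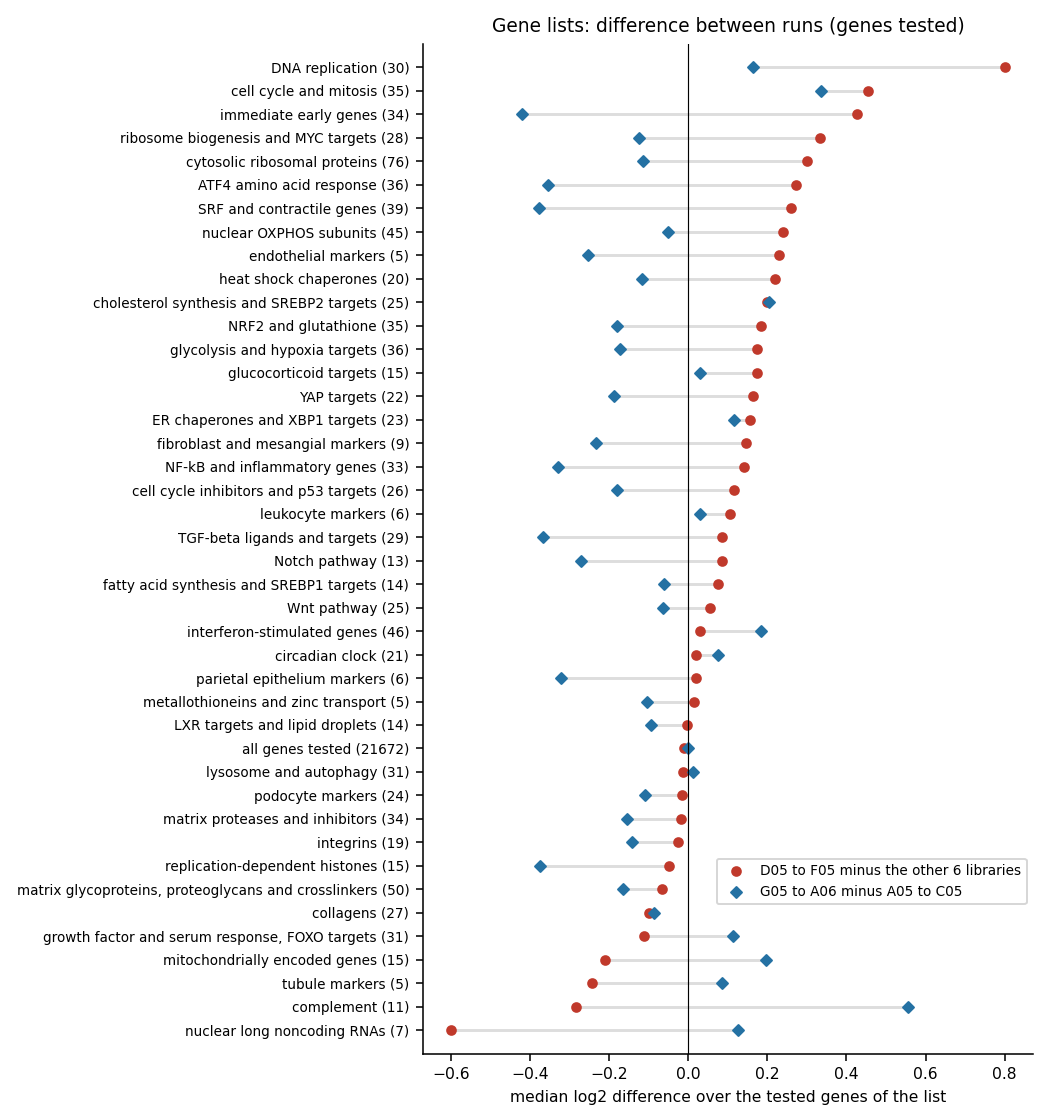
Median log2 difference (horizontal axis) over the tested genes of each list, with the number of genes tested in parentheses: D05 to F05 minus the other 6 libraries (red circles) and G05 to A06 minus A05 to C05 (blue diamonds). DNA replication (0.80) lies farthest to the right and nuclear long noncoding RNAs (-0.60) farthest to the left, while all tested genes lie at -0.01.

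Chaperones were higher for part of their lists, where 17.2% of all genes were set apart higher and 15.7% lower. Of 20 heat shock genes 9 were set apart higher and 0 lower, led by the mitochondrial chaperonin pair Hspe1 (0.52 ± 0.09) and Hspd1 (0.46 ± 0.07). The stress-inducible Hspa1a and Hspb1 did not separate the second run. Of 23 chaperones and folding enzymes of the endoplasmic reticulum 11 were set apart higher and 0 lower, among them Sdf2l1 (0.51 ± 0.13), Creld2 (0.39 ± 0.07) and Xbp1, a transcription factor of the unfolded protein response (0.32 ± 0.05).

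In a further set of genes the second run was highest, the first run intermediate and the third run lowest. Among the 139 set-apart genes that were at least 1 higher in the second run, 41 were lower in the third run than in the first and 1 was higher (edgeR, adjusted p under 0.05), where 5.8% of all genes were lower in the third run. These genes were chosen by the second run's difference from the same libraries, so the count is a description. Tmem171 had the highest difference of the second run among named genes with a mean of at least 1 CPM (1.64 ± 0.65). It was at 2.55 CPM in unstretched replicate 2, against 1.15 and 0.212 CPM in replicates 1 and 3. In the low-stretch libraries it was at 7.04 and 6.28 CPM in the second run, 5.46 and 2.55 CPM in the first and 0.605 and 0.708 CPM in the third. The third run was below the first by 2.55 on the log2 scale (difference -2.55 ± 0.25, adjusted p = 0.000319, edgeR).

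The same order held for Stbd1, a glycogen-binding protein, which was at 2.88 CPM unstretched and 5.71 and 5.63 CPM stretched in the second run. It was at 1.87, 3.74 and 3.41 CPM in the first run and at 0.801, 0.929 and 1.30 CPM in the third. Pcolce2, an enhancer of procollagen processing, was at 4.81, 10.2 and 9.12 CPM in the second run, 2.94, 6.46 and 6.83 CPM in the first and 0.659, 2.21 and 2.75 CPM in the third. Stretch raised Tmem171, Stbd1 and Pcolce2 (by 1.59, 0.81 and 1.32, edgeR, adjusted p under 0.05), yet their stretched libraries of the third run lay below the unstretched library of the second. Others with the order were Map2k6, a kinase upstream of p38 (1.16 ± 0.24), and Tnfrsf1b, a tumour necrosis factor receptor (1.15 ± 0.34). Siglecg, a sialic acid binding receptor known from B cells, was highest in the second run as well, at 11.6 CPM unstretched and 22.2 and 23.2 CPM stretched, against 2.36 to 3.53 CPM unstretched and 7.42 to 11.1 CPM stretched elsewhere (1.51 ± 0.18). The third and the first run did not differ for it past the threshold (-0.47 ± 0.15, adjusted p = 0.0711, edgeR). Nsg1, a vesicle protein known from neurons, was also among the 12 highest genes of at least 1 CPM, as was Klf2, and was higher by 1.21 ± 0.22.

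Actin cytoskeleton genes controlled by serum response factor (SRF) showed this order in part. Of 39 genes 15 were set apart higher in the second run and 0 lower, against 17.2% and 15.7% of all genes, with a median of 0.26. In the third run 17 of the 39 were lower than in the first and 1 higher, against 5.8% and 5.66% of all genes. Acta2, smooth muscle actin, was at 2156 CPM in unstretched replicate 2 against 1672 and 1267 CPM, and at 4328 and 4124 CPM in low-stretch replicates 3 and 4, against 3073 and 3488 CPM in the first run and 1564 and 1954 CPM in the third. Its difference was 0.68 ± 0.22 for the second run and -0.73 ± 0.13 for the third minus the first run (adjusted p = 0.00551, edgeR). Tagln2, a calponin-related actin binding protein, was higher by 0.99 ± 0.20. Stretch itself raised 20 of these 39 genes and lowered 3, against 13.7% and 14.5% of all genes. Ccn2, a matricellular protein that mechanical load induces, was at 436.0 CPM in unstretched replicate 2 against 246.1 and 106.8 CPM, and at 992.6 and 977.2 CPM under stretch against 954.9, 519.2, 356.3 and 244.8 CPM in replicates 1, 2, 5 and 6 (1.06 ± 0.37). Low-stretch replicate 1 lay just under the second run's values. Ccn2 belongs to the list of YAP target genes, not to the SRF list. Of 22 tested YAP targets 4 were set apart higher, a share near the 17.2% of all genes, and 1 lower.

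**Figure D3:**
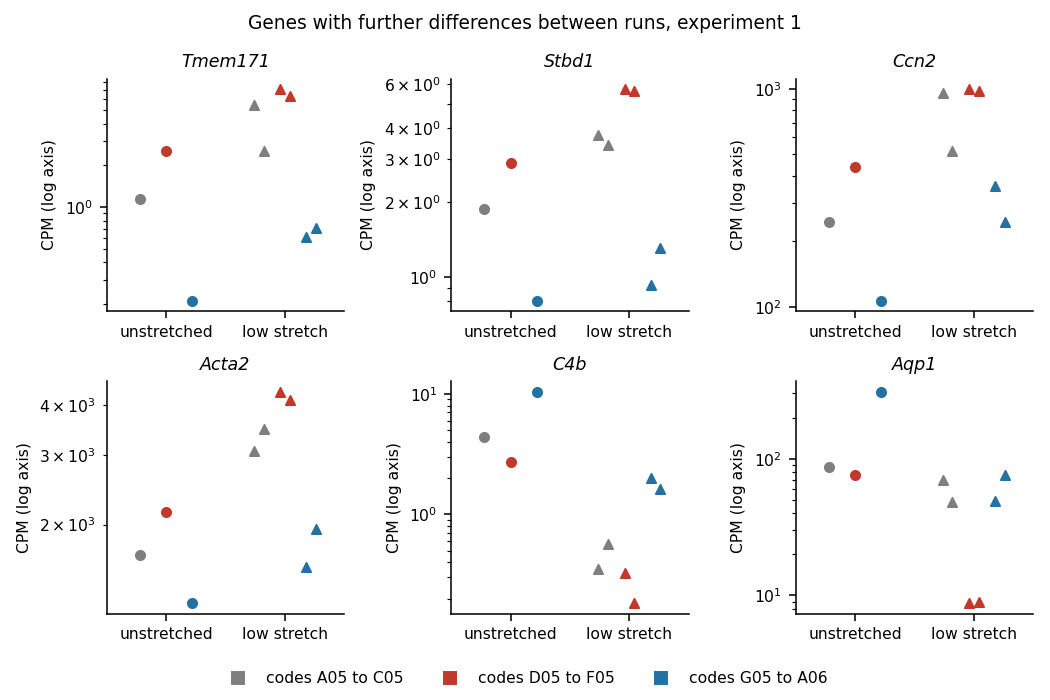
CPM (log axis) of 6 genes in the 9 libraries of experiment 1, with unstretched libraries as circles, low-stretch libraries as triangles and 1 colour per run. For Tmem171, Stbd1, Ccn2 and Acta2 D05 to F05 (red) were highest and G05 to A06 (blue) lowest in each stretch group, while C4b and Aqp1 were lowest in D05 to F05.

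Immediate early genes, which growth factors and stress induce within minutes, had a median of 0.43. Of 34 tested 9 were set apart higher and 0 lower, against 17.2% and 15.7% of all genes. In the third run 13 of 34 were lower than in the first and 0 higher, against 5.8% and 5.66% of all genes. Klf4 was at 7.23 CPM in unstretched replicate 2 against 4.19 and 2.31 CPM, and at 8.28 and 9.82 CPM stretched against 2.55 to 6.22 CPM (1.10 ± 0.26). Klf2, a related factor, was higher by 1.18 ± 0.32. Fos was not set apart (-0.24 ± 0.14). Egr1 was at 212.8 CPM in unstretched replicate 2 against 116.3 and 120.4 CPM, but at 49.7 and 71.6 CPM in low-stretch replicates 3 and 4, the first within and the other above the 48.2 to 61.8 CPM of the remaining libraries.

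A fit of stretch by run addressed that pattern, a high unstretched library without high stretched ones. It used the second run's own values, with 1 unstretched library whose spread was assumed to be that of the others, so its values are a description. The fit pooled the first and the third run, so the difference between them entered its spread. A lack of calls therefore does not show a lack of dependence on stretch. No gene passed for the interaction at an adjusted p under 0.05 with edgeR (0%). A raw p below 0.05 was found for 316 (1.46%), and DESeq2 called 7. The 3 lowest p-values were those of Errfi1, a feedback inhibitor of the epidermal growth factor receptor, Egr2, an immediate early factor, and the predicted gene 1110002E22Rik. Errfi1 was at 124.7 CPM in unstretched replicate 2 against 60.1 and 58.0 CPM, and at 79.9 and 91.5 CPM under stretch against 72.6 to 88.6 CPM. Egr2 was at 16.5 CPM against 3.90 and 6.07 CPM unstretched, and at 0.896 and 0.958 CPM against 1.02 to 1.49 CPM stretched. The interactions were -1.01 ± 0.16 and -2.14 ± 0.35 on the log2 scale, and both rest on that unstretched library alone. In experiment 2 unstretched replicate 3 was high as well, with Errfi1 at 128.2 CPM against 54.1 and 62.0 CPM in replicates 1 and 2. Egr2 was at 39.7 CPM there against 3.93 and 3.12 CPM. High-stretch replicate 3 of that experiment was at 85.9 CPM for Errfi1 and 0.648 CPM for Egr2, not above the other high-stretch libraries.

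ATF4, a factor of the integrated stress response, controls amino acid response genes. Of 36 such genes 13 were set apart higher and 1 lower, against 17.2% and 15.7% of all genes. Between the third and the first run 20 of the 36 were lower and 2 higher (edgeR, adjusted p under 0.05), where 5.8% and 5.66% of all genes were. Shmt2, a mitochondrial enzyme of one-carbon metabolism, was at 198.6 CPM in unstretched replicate 2 against 149.9 and 111.2 CPM, and at 247.7 and 226.9 CPM stretched against 107.1 to 173.2 CPM (0.71 ± 0.15). Pck2 was higher by 0.64 ± 0.09 and Psat1, an enzyme of serine synthesis, by 0.56 ± 0.15. Glutathione and NRF2 genes counted 9 higher and 0 lower of 35, against 17.2% and 15.7% of all genes. Cholesterol synthesis counted 4 higher of 25, a share near the 17.2% of all genes, and 0 lower, with its early enzyme Hmgcs1 at -0.02 ± 0.13. Of 33 inflammatory genes of the NF-kB list 10 were set apart higher and 4 lower, the latter share below the 15.7% of all genes. Ccl20, Cxcl10 and Il33 exceeded 1 on the log2 scale there and reached at most 1.25 CPM in any library. Other scarce list members past that size were the metallothionein Mt2 (1.68 ± 0.47), the growth factor Areg (1.39 ± 0.26) and the laminin chain Lama2 (1.25 ± 0.25), each with a mean under 0.1 CPM.

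No gene of the circadian clock list was set apart, in either direction, among 21 tested. Dbp (-0.30 ± 0.18), Per2 (-0.17 ± 0.11) and Nr1d1 (0.22 ± 0.12) had small differences. Interferon-stimulated genes counted 6 higher and 4 lower of 46, both shares below those of all genes (17.2% and 15.7%), and Ifit1 was at 0.15 ± 0.15. Txnip, a glucose-responsive gene, was at -0.09 ± 0.28 and Col1a1 at 0.04 ± 0.39. Of 27 collagens 0 were set apart higher and 4 lower (Col12a1, Col4a1, Col4a2 and Col4a5), the latter a share near the 15.7% of all genes.

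Genes set apart lower in the second run had a median log2 difference of -0.49, and those set apart higher one of 0.32. Tmprss6, a membrane serine protease, was at 2.64 CPM in unstretched replicate 2 against 10.1 and 13.0 CPM, and at 0.980 and 0.825 CPM in low-stretch replicates 3 and 4 against 1.25, 3.38, 9.68 and 8.19 CPM in replicates 1, 2, 5 and 6 (-2.46 ± 0.56). Aqp1, a water channel, was at 8.79 and 9.002 CPM in low-stretch replicates 3 and 4 against 48.4 to 76.1 CPM in the other low-stretch libraries. In the unstretched libraries it was at 75.6 CPM in replicate 2 against 86.9 and 308.2 CPM, so its difference of -2.26 ± 0.43 came mainly from the stretched samples. Its interaction was -1.39 ± 0.70. Sec1, a fucosyltransferase, was at 1.05 CPM unstretched and 0.519 and 0.543 CPM stretched against 2.15 to 3.08 CPM in all other libraries, with no overlap between runs (-2.05 ± 0.24). Ms4a6d was at 4.34, 1.56 and 1.58 CPM against 4.80 to 13.0 CPM elsewhere (-1.75 ± 0.22).

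The imprinted noncoding RNA H19 was at 0.976, 0.384 and 0.422 CPM in the second run against 2.45 to 3.33 CPM in 5 of the other libraries and 0.639 CPM in low-stretch replicate 1 (-2.12 ± 0.48). The others of the 12 lowest set-apart genes of at least 1 CPM were Slc1a7, a glutamate transporter (-1.79 ± 0.39), Hnmt, which inactivates histamine (-1.74 ± 0.31), Cnmd, chondromodulin (-1.68 ± 0.31), Inmt, an indole methyltransferase (-1.68 ± 0.56), Cysltr1, a leukotriene receptor (-1.57 ± 0.49), Gdpd2, a phosphodiesterase of phospholipid breakdown (-1.55 ± 0.32), and C4b. Stretch lowered most of these 12: with run as a term the adjusted p was above 0.05 for H19 and Sec1 only (edgeR). Complement genes counted 0 higher and 4 lower of 11, against 17.2% and 15.7% of all genes. C4b, complement component 4, was at 2.72 CPM in unstretched replicate 2 against 4.39 and 10.4 CPM, and at 0.325 and 0.184 CPM stretched against 0.351 to 1.99 CPM (-1.86 ± 0.57). Cfi, the complement protease factor I, was lower by 1.49 on the log2 scale (-1.49 ± 0.36). For 6 of the 11 the third run was above the first and for 0 below it, against 5.66% and 5.8% of all genes. C4b was higher there by 1.72 ± 0.24 (adjusted p = 0.002015, edgeR). The complement list's median difference of the second run was -0.02 from the first run and -0.45 from the third. As a list, complement was thus high in the third run, and the second run was close to the first.

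Long noncoding RNAs retained in the nucleus were the group with the lowest median. Of 12 in the list 7 had enough counts to be tested, with a median log2 difference of -0.60. Of these 7, 5 were set apart lower (Kcnq1ot1, Malat1, Neat1, Xist and Tug1), against 15.7% of all genes. Set apart higher, against 17.2% of all genes, was 1 (Snhg1, a host of small nucleolar RNAs). Malat1, an abundant RNA of nuclear speckles, was at 461.0 CPM in unstretched replicate 2 against 731.2 and 804.6 CPM, and at 269.1 and 414.5 CPM in low-stretch replicates 3 and 4 against 677.5 to 918.4 CPM (-1.01 ± 0.16). Neat1, the scaffold of paraspeckles, was at 130.3 CPM unstretched and 108.4 and 118.8 CPM stretched against 159.0 to 257.3 CPM in the other 6 libraries (-0.82 ± 0.14). Malat1 differed little between the third and the first run (-0.05 ± 0.17, adjusted p = 0.884, edgeR), and the list's median for that difference was 0.13. The 12 together took 0.171%, 0.112% and 0.150% of counts in the second run and 0.197% to 0.281% elsewhere.

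**Figure D4:**
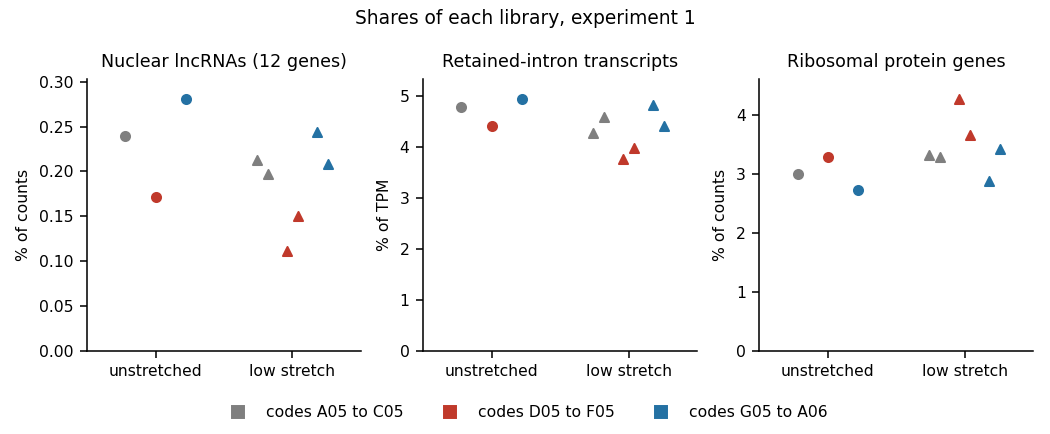
Share of each library in the 12 listed nuclear long noncoding RNAs, in retained-intron transcripts and in ribosomal protein genes (vertical axes, from 0), with unstretched libraries as circles, low-stretch libraries as triangles and 1 colour per run. D05 to F05 (red) had the lowest noncoding share of the 9 libraries, at 0.112% to 0.171% of counts, and within each stretch group the lowest retained-intron share and the highest ribosomal protein share.

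Several other classes of transcript with little or no coding function were lower too. Set apart lower were 43.2% of 111 sense intronic genes, 34.9% of 953 genes of the annotation class TEC, which awaits experimental evidence, 28.8% of 1132 antisense genes and 20.4% of 901 lincRNA genes, against 15.7% of all genes. At most 5.55% of any of these classes were set apart higher. Not all such classes were lower: processed pseudogenes counted 14.3% higher and 6.14% lower of 2686. Of 129 snoRNA genes 4 were set apart higher and 16 lower (12.4%), with a median log2 difference of -0.12. Their lower share was under the 15.7% of all genes, but more of them were lower than higher. Protein-coding genes counted 22.2% higher and 13.9% lower of 14340. The strand setting of the deposited counts is not given in the sources used here, so reads of antisense and sense intronic genes may include reads of the genes they overlap. Retained-intron transcripts took 4.42% of TPM (transcript abundance per length and library) in unstretched replicate 2 against 4.78% and 4.94%, and 3.76% and 3.97% in low-stretch replicates 3 and 4 against 4.27% to 4.82%.

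**Figure D5:**
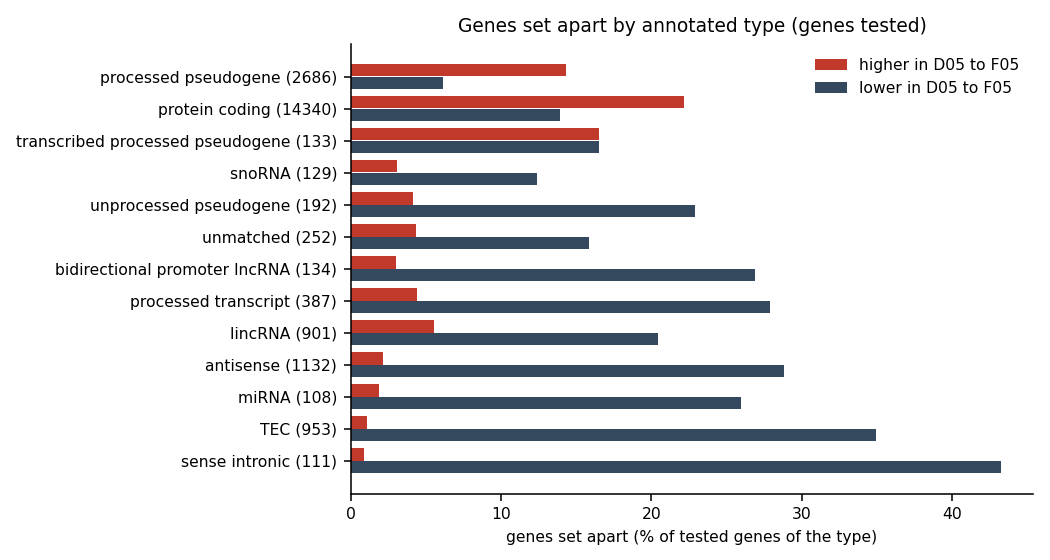
Percentage of tested genes of each annotated type that were set apart higher (red) or lower (dark) in D05 to F05, with the number of genes tested in parentheses. Sense intronic genes reach 43.2% lower, while processed pseudogenes have 14.3% higher and 6.14% lower. Protein-coding genes have 22.2% higher and 13.9% lower.

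Base composition and gene length moved with these classes. The mean GC content of counted genes was 49.2% to 49.4% in the second run and 48.7% to 49.2% in the other libraries, and the mean transcript length was 3801 to 4091 bases against 4035 to 4277 bases. Among the fifth of genes with the lowest GC content, 27.7% were set apart lower and 9.01% higher, with a median of -0.17. In the fifth with the highest GC content 10.7% were lower and 20.5% higher. After a correction for gene length the median of the nuclear noncoding RNAs was -0.36 and 2 of them were set apart, with Malat1 at -0.94 and Kcnq1ot1 at -0.62 (-1.06 without it), while 30 of 30 replication genes were set apart after either correction. The part of composition, length and RNA quality in the lower noncoding classes was not tested.

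The remaining 6 libraries were not alike either. Between the third and the first run 2483 genes differed (11.5% of those tested), 1226 higher and 1257 lower. Sfrp2, a secreted Wnt antagonist, was at 2.57 to 3.64 CPM in the third run, 0.0737 to 0.438 CPM in the first and 0.234 to 0.603 CPM in the second, where it overlapped the first. Apln, the ligand apelin, Tnfrsf19, Jam2 and Slc2a6 had the next largest rises in the third run. Prss35, Gper1, Ppbp and Foxf2, which had the largest falls from the first to the third run, owed much of it to low-stretch replicate 1, where Prss35 reached 68.9 CPM against at most 2.33 CPM in the other low-stretch libraries. For these 4 genes the second run lay between 0.0203 and 1.63 CPM in all its libraries.

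Of the 3728 genes set apart higher in the second run, 13.4% differed between the third and the first run and 36.5% with stretch, against 11.5% and 28.2% of all genes. Of the 3392 set apart lower it was 4.66% and 24.6%. The set-apart rule itself asks that the other libraries leave room on 1 side, so these shares are descriptions.

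Experiment 2 offered libraries that the choice of the second run did not use: 3 unstretched and 3 high-stretch samples, whose codes form 3 pairs, B06 and C06, D06 and E06, and F06 and G06. There a term for the pairs passed for 147 of 18524 genes (0.794%, edgeR, adjusted p under 0.05), and for 18.5% the raw p was below 0.05. Of the 30 replication genes 0 passed in edgeR, and 4 had a raw p below 0.05. Tk1 was at 101.1, 161.7 and 70.8 CPM in unstretched replicates 1, 2 and 3 of that experiment and at 81.8, 138.6 and 138.9 CPM in the high-stretch replicates. The list's median deviation from the same group of the other pairs ran from -0.242 to 0.380 over the 6 libraries, beside 0.761 to 0.837 in D05 to F05. Some other lists reached larger sizes in the pairs than in D05 to F05. Ribosomal protein genes ran from -0.938 to 0.564, beside 0.212 to 0.469. Nuclear oxidative phosphorylation ran from -0.673 to 0.488 beside 0.169 to 0.32, and nuclear noncoding RNAs from -1.22 to 1.2 beside -0.915 to -0.33. In D06 and E06 these lists deviated in the same direction as in D05 to F05. Ribosome biogenesis genes stayed between -0.217 and 0.0981, beside 0.318 to 0.371.

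Of the mitosis genes 3 of 35 passed in experiment 2, among them Mki67 (adjusted p = 0.0114, edgeR), which was at 103.6 and 58.1 CPM in the third pair against 26.3 to 55.3 CPM in the others. The 3 lowest p-values of all genes were those of Has2, a hyaluronan synthase, Arhgap20, a GTPase-activating protein, and Hmcn1, a large matrix protein, each highest in the third pair (adjusted p = 0.00141 for each, edgeR). Genes set apart higher in D05 to F05 passed in 20 of 3661 cases (0.546%) and those set apart lower in 45 of 2707 (1.66%). This count has little stability: with 2 residual degrees of freedom it went from 6 without high-stretch replicate 2 to 7206 without high-stretch replicate 3.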

How the data were processed

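Poly(A)-selected RNA of 15 samples was made into stranded libraries and read from both ends (Illumina NovaSeq), per the labels' protocols. The authors deposited raw read counts for 55416 genes and transcript TPM for 140789 transcripts. The submitters' processing notes name mm39, STAR 2.7.5c, featureCounts, Subread 2.0.0, DESeq2 1.38.3 and Salmon 1.9.0, without roles; the annotation release and the strand setting of counting are not given in the sources used here. Gene types, GC content and lengths came from GENCODE M21, which matched 52083 genes, and its coordinates were not used. Promoters came from RefSeq's table for GRCm38.p6.

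Counts were fitted with edgeR 4.0.16 in R 4.3.3 (TMM, filterByExpr, glmQLFit, glmQLFTest), with Benjamini-Hochberg adjustment over all genes at 0.05, separately in the 9 samples of experiment 1 and the 6 of experiment 2. The difference of D05 to F05 was fitted with stretch as a covariate. The third against the first run and the stretch effect came from a fit with run as 3 levels, and the interaction from a fit with stretch, the second run and their product. An SE is the log2 change divided by the square root of F. List scores added 0.05 CPM before the log2. Depth ranged from 172.2 to 396.7 M counts over all samples.

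The members, the 41 gene lists and the motifs were chosen with earlier results of these data known. The motif TTTGCCGC was added to the search after the promoter counts for the other motifs had been seen. Named genes were the 12 highest and 12 lowest set-apart genes with a mean of at least 1 CPM and a plain symbol, set-apart list members with a log2 difference of at least 1, 16 genes named whatever their values, the 5 highest and 5 lowest called genes of the third against the first run, and the 3 lowest p-values of the interaction and of experiment 2; other list members named as examples were chosen after their values were seen. No label says that samples were separate cultures, so p-values measure the spread between these samples. The tests were tested on simulated data, in which 200 genes had a log2 change of 2. That of the third against the first run recovered 93.3% among 21384 genes with 5 false calls. The interaction test recovered 61.5% among 21373 genes with 11, the stretch test 95.2% among 21381 with 12, and the test of experiment 2 66.8% among 18231 with 6. Alternatives were DESeq2 1.42.0, RLE size factors, other count filters, each other run alone, low-stretch samples only, all 15 samples in one fit, gene sums of TPM, corrections for GC content and length, a replicate block and each sample left out. For the gene lists, the corrections, the block, the leaving out of samples and the reference of list scores (libraries of other runs only) were added after the data were seen.

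Replicate numbers 1 to 3 recur across groups. Samples with the same number had a mean correlation of deviations of -0.072 (-0.447 to 0.376), so the numbers were not taken as pairs. Some genes that the naming rule or the lists hold are not reported here.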

Additional observations from a re-analysis of the deposited data

Results flagged for a closer look

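Of 79 values examined for 1 library far from the rest of the low-stretch group (6 libraries), 7 had a gap above Dixon's critical value of 0.625 of the group's range. Chance alone flags about 1 in 20 groups. In low-stretch replicate 1, which belongs to the first run, Prss35 was at 68.9 CPM against 0.0301 to 2.33 CPM in the other 5 libraries, Gper1 at 24.0 CPM against 0.0656 to 0.648 CPM, Ppbp at 11.9 CPM against 0.214 to 2.89 CPM and Foxf2 at 4.08 CPM against 0.342 to 1.63 CPM. These 4 values enter the comparison of the third with the first run.

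In the second run, Ccl20 was at 0.0352 CPM in low-stretch replicate 4 against 0.00345 to 0.0146 CPM, and Lyz2 at 0.0877 CPM in low-stretch replicate 3 against 0.0226 to 0.0430 CPM, both near the lower end of what was counted. The total of low-stretch replicate 2 was 396.7 M counts against 262.0 to 290.1 M.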

How the results depend on the processing

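The replication list kept all 30 members set apart under every alternative run, with a median between 0.69 and 0.89. The 7120 set-apart genes became 12140 against the third run alone, and 7315 to 10330 with 1 sample left out. Those of at least 1 in size (502) became 973 with no filter on low counts, 128 with a mean count of at least 100, 1212 against the third run alone and 443 to 887 with 1 sample left out, the highest without unstretched replicate 2 and 811 without low-stretch replicate 4. Fewer libraries to lie outside of, or fewer genes, make these counts differ by construction. The noncoding list's median of -0.60 became -0.27 with no filter, -0.47 with the GC correction, -0.36 with the length correction (2 of 7 set apart), -0.41 against the first run alone, -0.77 against the third alone, -0.50 in TPM and -0.76 to -0.45 with 1 sample left out. In TPM the ribosome biogenesis median was 0.22 and that of nuclear oxidative phosphorylation 0.15. The causes of these shifts were not tested.

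With the replicate block, which rests on numbers that do not pair the samples, 11730 genes were set apart, 934 of them by at least 1, the noncoding median was -0.69, and stretch called 490 genes in place of 6106. Stretch called 1181 with no run term and 3078 to 6062 with 1 sample left out (3078, 3540 and 3651 without unstretched replicates 1, 2 and 3). For the third against the first run and for the interaction no fit with the block had samples to spare, and in experiment 2 the number is the run. The third against the first run gave 1253 to 2170 genes with 1 sample left out, in place of 2483: 1253 without low-stretch replicate 5, 1461 without low-stretch replicate 1 and 1468 without unstretched replicate 3. The interaction called 7 with DESeq2 and 0 to 1 with 1 sample left out; without unstretched replicate 2 it could not be fitted. In experiment 2 the run term called 33 genes with RLE size factors, 601 with no filter, 1 with a mean count of at least 100 and 6 to 7206 with 1 sample left out. Of the named genes' differences of the second run, 948 values moved by at most the SE of the difference and 102 by more, and no set-apart gene changed sign.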
